A study of Mus musculus with 20 samples.

Results

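Collagen genes were followed in RNA of the mouse aortic endothelium. They were taken as the genes whose symbol is Col, a type number, a and a chain number, and that appear in both deposited tables. The rule found 36 genes among the 20442 of the variance-stabilized table, and 43 such symbols among the 32081 genes of the FPKM table (fragments scaled to gene length and library depth). Of the 36 genes, 8 encode fibrillar chains (types I, III, V, XI and XXVII), 8 encode chains of basement membranes (type IV and the associated types XV and XVIII) and 20 encode other types. A mean of at least 0.5 FPKM was reached by 29 of them, 8 fibrillar, 8 basement membrane and 13 other, and only these were tested. Col6a4, Col7a1, Col9a1, Col9a2, Col9a3, Col17a1 and Col28a1 were members below that level. The 7 symbols present in the FPKM table alone, Col2a1, Col11a1, Col13a1, Col19a1, Col22a1, Col24a1 and Col25a1, had at most 60 reads in any library.

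Collagens are the main structural proteins of the extracellular matrix, built from alpha chains that wind around one another. Fibrillar collagens give the arterial wall its tensile strength and are made mostly by fibroblasts and smooth muscle cells, whereas type IV collagen forms the network of the basement membrane on which endothelial cells rest. Types VI, XII, XIV and XVI associate with fibrils or form fine filaments, type VIII forms networks in vessel walls, and types XIII, XVII, XXIII and XXV cross the plasma membrane.

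Total RNA was sequenced from 20 female Apoe-/- mice (strain B6.129P2-Apoetm1Unc/J), a model that lacks apolipoprotein E and has raised blood cholesterol. Every mouse, the controls included, had its kidney mass reduced by 5/6 nephrectomy at 9 weeks of age. Each received a single retro-orbital injection 7 weeks later, and its aorta was sampled 1 week later still. By group, 4 mice each were given saline, 4 mg of high-density lipoprotein (HDL), HDL with 20 mg/kg of LNA92a, HDL with 20 mg/kg of LNA489, or HDL with 20 mg/kg of each (40 mg/kg in all). The names LNA92a and LNA489 stand for inhibitors built with locked nucleic acids against the microRNAs miR-92a and miR-489. A library is named here by its group and mouse number (Saline 1, HDL 3, LNA92a 5, LNA489 7 and, for both inhibitors, Dual 8).

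The libraries held 11.6 to 21.4 M assigned reads, recovered as whole reads from the FPKM values. All 14 endothelial markers of the labelled tissue were read, but the 9 fibroblast and 9 adipocyte markers were read as well, and the balance differed between libraries. In HDL 4 the endothelial gene Pecam1 was 10.8 FPKM and the fibroblast gene Dcn 1238, against 1009 and 324 in HDL 23. The summed endothelial markers ranged from 79.2 FPKM in LNA92a 5 to 2268 in HDL 23, and the summed fibroblast markers from 98.6 in Saline 9 to 2866 in LNA489 14. Saline 2 and Dual 10 also held 414 to 445 FPKM of the adrenal enzyme gene Cyp21a1, at most 2.03 in the other 18 libraries. HDL 11 held 61.1 FPKM of the B cell gene Ms4a1, at most 8.21 in the other 19. Calls of the marker relations that changed without these 3 libraries are given beside them. In bulk RNA, fewer cells of a type and less RNA per cell cannot be told apart.

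The 2 collagens with the highest mean FPKM, Col1a1 and Col3a1, were fibrillar. Ranks and shares by FPKM depend on the gene lengths used, 6563 bases for Col1a1, 9816 for Col3a1 and 12426 for Col1a2. By total reads, Col3a1 (176376) and Col1a2 (146793) were above Col1a1 (131038). Col1a1 and Col1a2, the chains of type I collagen, averaged 59.2 and 36.1 FPKM over the 20 libraries. Col3a1, the type III chain of distensible tissues, averaged 53.9, and the type V chains Col5a2 and Col5a1, which start fibrils, averaged 24.9 and 14.5. The remaining fibrillar members Col5a3, Col27a1 and Col11a2 averaged 1.93, 0.792 and 0.541.

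Col1a1 (ENSMUSG00000001506.10, chromosome 11, 94936224 to 94953042, GRCm38) measured 35.4, 70.4, 16.9 and 20.4 FPKM in the saline mice 1, 2, 9 and 24, and 22.3, 84.3, 12.8 and 15.9 in the HDL mice 3, 4, 11 and 23. It measured 33.5, 280.0, 18.3 and 11.1 in the LNA92a mice 5, 12, 17 and 18, 54.95, 34.1, 194 and 70.7 in the LNA489 mice 7, 13, 14 and 19, and 43.8, 46.9, 109 and 9.03 in the dual mice 8, 10, 15 and 21. The ranges of all 5 groups overlapped, with LNA92a 12 and LNA489 14 far above the rest and Dual 21 lowest, 31.0-fold below LNA92a 12. These libraries were also the 2 highest and the lowest for Col3a1.

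Col3a1 (ENSMUSG00000026043.18, chromosome 1, 45311538 to 45349706), in the same order of mice, measured 38.0, 81.6, 12.1 and 15.2 FPKM with saline, 37.2, 80.9, 12.4 and 21.02 with HDL and 39.4, 225, 17.5 and 24.1 with LNA92a. It measured 45.2, 33.4, 166 and 45.2 with LNA489 and 33.7, 52.8, 88.97 and 8.98 with both inhibitors. Every group overlapped every other, and 1.44% of the Col3a1 exon bases are shared with another annotated gene, Gm47302.

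Col1a2 measured 26.7, 43.6, 6.75 and 9.21 FPKM with saline, 9.26, 64.8, 6.68 and 11.98 with HDL, 33.6, 138, 14.8 and 11.1 with LNA92a, 54.1, 12.1, 95.8 and 62.0 with LNA489 and 37.2, 23.8, 56.0 and 5.19 with both inhibitors. As for Col1a1, LNA92a 12 and LNA489 14 were highest and the groups overlapped.

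Col5a2, the other abundant fibrillar chain, followed a different set of libraries. It (ENSMUSG00000026042.16, chromosome 1, 45374321 to 45503282) measured 5.32, 15.4, 24.2 and 41.7 FPKM with saline, 103, 8.21, 6.09 and 38.8 with HDL, 4.93, 18.6, 11.8 and 26.2 with LNA92a, 11.2, 54.2, 16.0 and 12.3 with LNA489 and 18.00, 33.4, 13.2 and 34.8 with both inhibitors. It was highest in HDL 3 and LNA489 13, where Col1a1 was 22.3 and 34.1 FPKM, and among the lowest in HDL 11. Its partner chain Col5a1 measured 7.12, 12.99, 8.60 and 18.3 FPKM with saline, 18.7, 12.5, 3.81 and 17.9 with HDL, 8.24, 36.7, 8.08 and 9.70 with LNA92a, 14.4, 8.78, 25.4 and 18.4 with LNA489 and 15.8, 10.1, 13.9 and 19.7 with both inhibitors. Col5a1 ranged from 3.81 FPKM in HDL 11 to 36.7 in LNA92a 12, and the ratio of Col5a2 to Col5a1 ran from 0.509 in LNA92a 12 to 6.17 in LNA489 13.

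**Figure D1:**
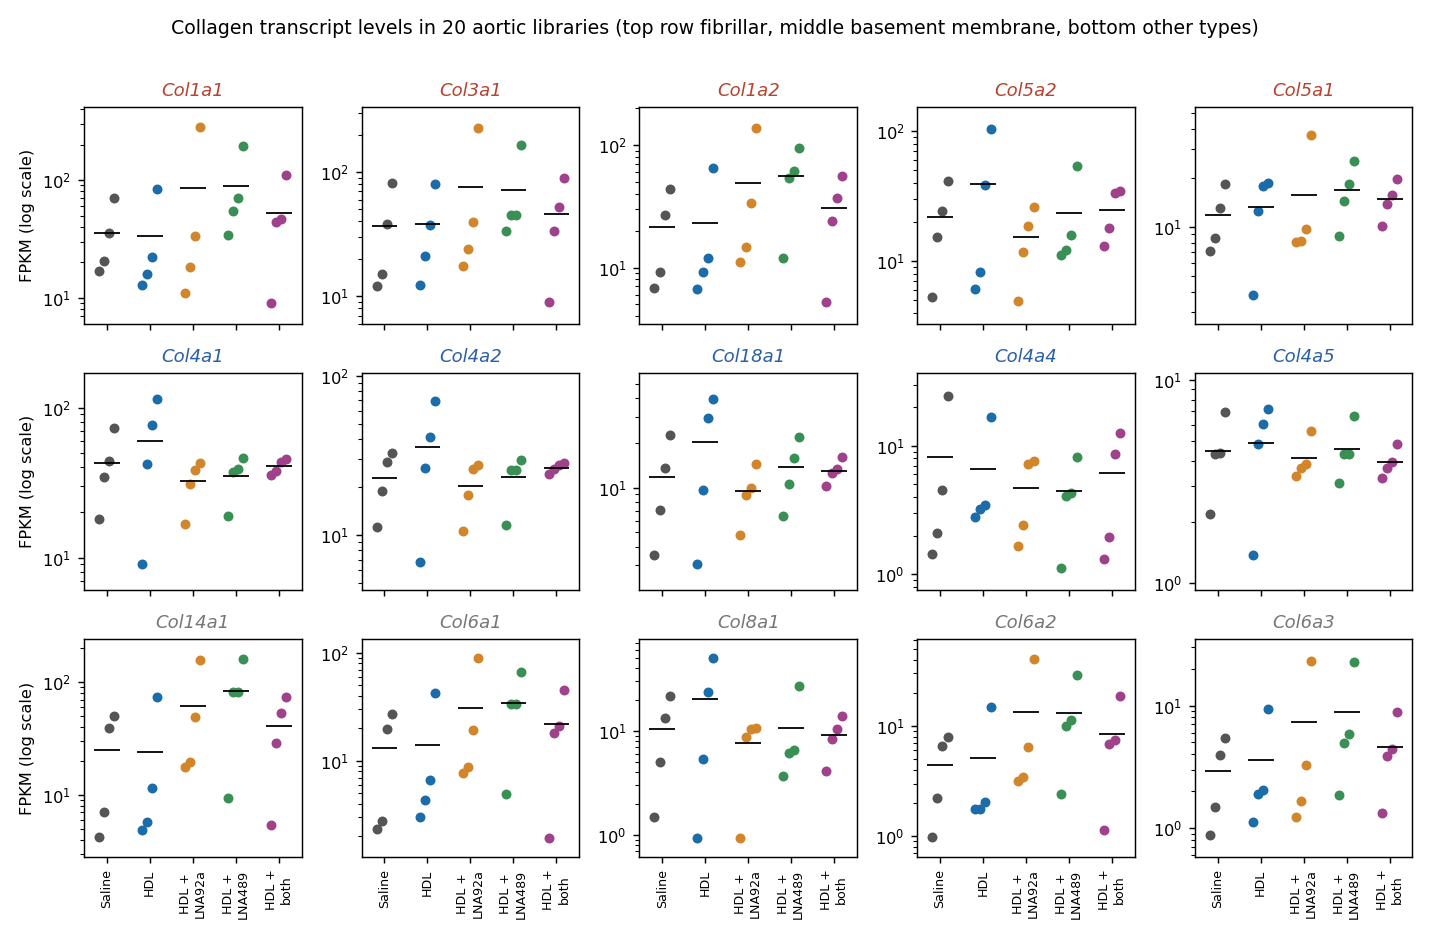
FPKM on a log axis of the 5 most abundant collagens of each class in the 5 groups; each point is 1 mouse, sorted by value within its group, and the black line is the group mean. The points of every group overlap those of the others, and single mice such as LNA92a 12 for Col1a1 (280.0 FPKM) lie far above the rest of their group.

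Basement membrane collagens were led by Col4a1 and Col4a2, the chains of the type IV network in nearly all vessels, at 42.1 and 25.7 FPKM on average. Col18a1, the proteoglycan core from which endostatin is cut, averaged 13.6, and Col15a1, its relative, 3.93. The chains of the specialised type IV networks, best known from the kidney, averaged 6.00 (Col4a4), 4.40 (Col4a5), 3.62 (Col4a3) and 2.00 (Col4a6).

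Col4a1 (ENSMUSG00000031502.11, chromosome 8, 11198423 to 11312826) measured 17.9, 44.3, 34.2 and 73.3 FPKM with saline, 113, 42.01, 9.07 and 76.3 with HDL and 16.8, 38.1, 31.0 and 42.7 with LNA92a. It measured 38.7, 45.9, 18.8 and 37.5 with LNA489 and 43.7, 37.8, 35.5 and 45.7 with both inhibitors. The HDL mice held both the highest and the lowest value, and the 4 dual mice lay within 35.5 to 45.7, inside the range of the HDL mice. Col4a2 measured 11.3, 28.8, 18.7 and 32.8 FPKM with saline, 69.3, 26.1, 6.73 and 41.0 with HDL, 10.55, 27.4, 17.7 and 25.7 with LNA92a, 25.5, 29.4, 11.48 and 25.4 with LNA489 and 24.2, 25.7, 28.1 and 27.5 with both inhibitors. It moved beside Col4a1, with a ratio of Col4a1 to Col4a2 between 1.26 and 2.23 (coefficient of variation 13.1%).

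Col18a1 measured 3.52, 7.03, 13.5 and 22.7 FPKM with saline, 39.3, 9.60, 3.06 and 29.4 with HDL, 4.78, 10.02, 8.88 and 14.3 with LNA92a, 6.44, 21.9, 15.9 and 10.49 with LNA489 and 10.2, 16.0, 12.5 and 13.3 with both inhibitors. It was highest in HDL 3 and lowest in HDL 11, as Col4a1 was. Col4a5 measured 6.99, 4.33, 2.19 and 4.37 FPKM with saline, 7.23, 6.07, 1.38 and 4.86 with HDL, 3.36, 3.70, 3.87 and 5.62 with LNA92a, 4.34, 3.12, 6.62 and 4.31 with LNA489 and 4.82, 3.30, 3.68 and 3.94 with both inhibitors, again highest in HDL 3 and lowest in HDL 11, and its groups overlapped.

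The type IV genes lie head to head in pairs, each pair read outward from a shared region. The first exons of Col4a1 and Col4a2 overlap by 22 bases on chromosome 8 (11312805 to 11312826), Col4a4 and Col4a3 leave 71 bases between them on chromosome 1, and Col4a6 and Col4a5 leave 1308 bases on chromosome X. Because of the overlap, and because the strand of counting was not given in the sources used here, reads from those 22 bases cannot be assigned to Col4a1 or Col4a2. The whole interval between Col4a4 and Col4a3 is shown, 5′ to 3′ on the Col4a4 strand, since transcripts of these 2 genes rose and fell together (RefSeq, GRCm38.p6, chr1:82586850-82586920, minus strand); it holds none of the 3 motifs searched below, so it has no capitals.
Col4a4-Col4a3 interval: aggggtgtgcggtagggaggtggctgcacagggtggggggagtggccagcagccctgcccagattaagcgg

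Col4a4 (ENSMUSG00000067158.9, chromosome 1, 82448423 to 82586849) measured 2.11, 1.45, 4.56 and 24.6 FPKM with saline and 3.43, 3.19, 2.79 and 16.8 with HDL, highest in Saline 24 and HDL 23. It measured 1.65, 2.44, 7.17 and 7.57 with LNA92a, 4.33, 1.124, 4.10 and 8.19 with LNA489 and 8.67, 1.96, 1.30 and 12.5 with both inhibitors. Col4a3 was likewise highest in Saline 24 and HDL 23 (13.4 and 11.9 FPKM), and over the 20 libraries the pair had r = 0.97, a value described after it was seen. Of the Col4a3 exon bases, 5.65% are shared with C430014B12Rik. Col4a1 and Col4a3 had r = 0.25, and the ratio of Col4a1 to Col4a4 ran from 2.98 in Saline 24 to 40.9 in LNA489 13.

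Among the other types, Col14a1, a fibril-associated collagen of connective tissue, was the most abundant with 46.6 FPKM on average. The type VI chains Col6a1, Col6a2 and Col6a3, which form beaded microfibrils, averaged 22.9, 8.92 and 5.45. Col8a1, a short-chain collagen of vessel walls, averaged 11.6, and the membrane-spanning Col23a1 averaged 5.41; Col23a1 is named here after its values were seen.

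Col14a1 (ENSMUSG00000022371.15, chromosome 15, 55307750 to 55520803) measured 38.9, 49.7, 4.25 and 7.06 FPKM with saline, 4.86, 73.4, 5.71 and 11.46 with HDL and 48.9, 158, 19.8 and 17.6 with LNA92a. With LNA489 it measured 81.7, 9.46, 159 and 80.9, and with both inhibitors 53.7, 28.8, 73.8 and 5.40. All 5 groups overlapped. The lowest value, 4.25 FPKM in Saline 9, and the highest, 159 in LNA489 14, differed 37.5-fold.

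Col6a1 measured 19.7, 27.3, 2.32 and 2.76 FPKM with saline, 3.01, 42.3, 4.304 and 6.62 with HDL, 19.3, 88.8, 8.83 and 7.68 with LNA92a, 33.4, 4.91, 66.6 and 33.7 with LNA489 and 21.1, 18.2, 45.6 and 1.95 with both inhibitors. Col6a2 measured 7.93, 6.52, 0.973 and 2.19 FPKM with saline, 1.77, 14.8, 2.05 and 1.77 with HDL, 6.38, 40.8, 3.41 and 3.13 with LNA92a, 11.3, 2.40, 29.03 and 10.02 with LNA489 and 7.49, 6.83, 18.5 and 1.14 with both inhibitors. Col6a3 measured 3.94, 5.46, 0.874 and 1.48 FPKM with saline, 1.88, 9.30, 1.118 and 2.05 with HDL, 3.24, 23.1, 1.65 and 1.24 with LNA92a, 4.92, 1.87, 22.6 and 5.81 with LNA489 and 4.38, 3.86, 8.82 and 1.33 with both inhibitors. For these 3 type VI chains every group overlapped every other.

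Col8a1 (ENSMUSG00000068196.4, chromosome 16, 57624258 to 57754737) measured 1.49, 5.001, 13.3 and 21.9 FPKM with saline, 50.6, 5.39, 0.926 and 23.6 with HDL and 0.927, 8.82, 10.4 and 10.7 with LNA92a. With LNA489 it measured 6.12, 26.8, 3.67 and 6.52, and with both inhibitors 10.53, 13.8, 4.13 and 8.31. Its order of libraries was close to that of Col5a2 (r = 0.92, described after it was seen), and LNA489 13 was highest among the LNA489 mice for both and lowest for Col14a1.

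Col23a1 (ENSMUSG00000063564.13, chromosome 11, 51289920 to 51583918) measured 1.35, 1.79, 4.24 and 16.4 FPKM with saline and 14.4, 1.49, 2.34 and 17.6 with HDL. With LNA92a it measured 0.886, 2.02, 5.11 and 7.64, with LNA489 1.74, 6.38, 1.24 and 3.65 and with both inhibitors 5.55, 4.14, 1.79 and 8.501. HDL 23, Saline 24 and HDL 3 held the highest values, followed by Dual 21 with 8.501 FPKM, and the groups overlapped.

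**Figure D2:**
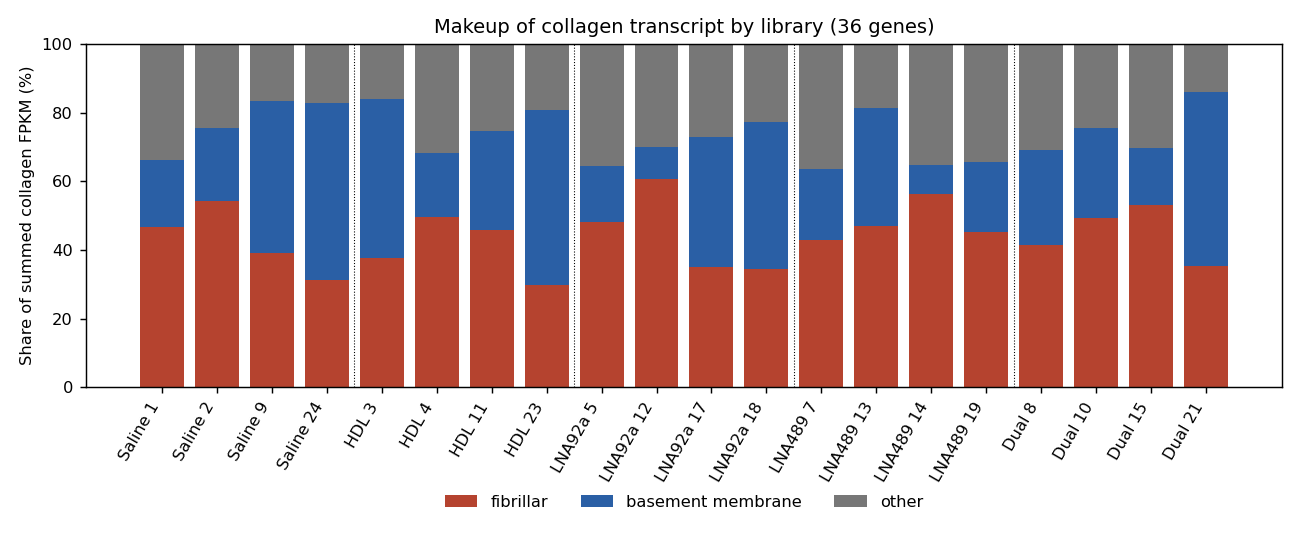
Share of each collagen class in the summed FPKM of the 36 collagen genes, 1 bar per library, with dotted lines between the groups. The basement membrane share runs from 8.54% in LNA489 14 to 51.6% in Saline 24, and each group holds libraries with a large and with a small share.

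The makeup of collagen RNA differed widely between mice of the same group. Summed over the 36 genes, collagen ran from 97.2 FPKM in HDL 11 to 1165 in LNA92a 12. Fibrillar chains made up 29.8% (HDL 23) to 60.8% (LNA92a 12) of it, basement membrane chains 8.54% (LNA489 14) to 51.6% (Saline 24) and other types 14.1% (Dual 21) to 36.5% (LNA489 7). By group the basement membrane share was 34.2% ± 16.2 (SD, n = 4) with saline, 36.2% ± 15.0 with HDL, 26.5% ± 16.2 with LNA92a, 21.0% ± 10.6 with LNA489 and 30.3% ± 14.3 with both inhibitors.

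The most abundant collagen gene per length changed from library to library. It was Col4a1 in 7 libraries, Col1a1 and Col14a1 in 5 each, Col3a1 in 2 and Col5a2 in LNA489 13. Col4a1 led in Saline 9 and 24, HDL 3 and 23, LNA92a 17 and 18 and Dual 21. The ratio of Col4a1 to Col1a1 ran from 0.0968 in LNA489 14 to 5.08 in HDL 3.

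Collagens were more variable than most genes. Their SD over the 20 libraries had a median of 1.177 on the deposited log2 scale, against 0.51 over the 16848 genes tested, and 25 of 29 exceeded the upper quartile of all genes (0.69). Treatment group accounted for 1.13% (Col8a1) to 37.4% (Col12a1) of that variance, with a median of 14.1% over the 29 collagens and 16.0% over all genes tested. With no difference between groups, 21.1% is expected on average in a design of 5 groups of 4. Above it lay 6 of the 29 collagens and 5511 of the 16848 genes tested.

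Levels of each collagen were set against marker means of 4 cell types over the 20 libraries. Relations were tested with permutation tests (100000 resamples) and Benjamini-Hochberg adjustment over the 67392 relations of all genes tested with the 4 lists. These points share library composition and depth, so a relation describes libraries and not regulation. The collagens divided mainly between a set that rose with fibroblast markers and a smaller set that rose with endothelial markers. With the endothelial mean, 7 of 29 collagens had a positive and 15 a negative relation at adjusted p under 0.05, where 14.2% and 15.1% of all genes did (29.3% in either direction). With the fibroblast mean, 16 had a positive and 2 a negative relation, against 19.7% and 22.0% of all genes (41.6% in either direction).

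The collagens that rose with fibroblast markers came from all 3 classes. The 15 collagens with both a positive fibroblast and a negative endothelial relation were Col1a1, Col1a2, Col3a1, Col5a3, Col27a1, Col15a1, Col6a1, Col6a2, Col6a3, Col6a5, Col6a6, Col8a2, Col12a1, Col14a1 and Col16a1. Col14a1 had r = 0.99 and rho = 0.99 with the fibroblast mean, and Col6a1 had r = 0.98 and rho = 0.98 (each permutation p = 1e-05, the smallest 100000 permutations can give; adjusted p = 0.000199). Col1a1 had r = 0.87 and rho = 0.91, with the same p. Without the 2 libraries farthest from the median fibroblast mean, Saline 9 and Dual 21, these r were 0.99, 0.99 and 0.86. The fibroblast and endothelial means tended to run in opposite directions over the libraries. Col14a1, which nearly traced the fibroblast mean, had r = -0.65 with the endothelial mean. The positive and the negative relation are therefore not separate properties of these genes. Whether any of the 15 fell with endothelial markers beyond this was not tested. All 15 also had a positive relation with adipocyte markers, with r = 0.95 for Col14a1 and for Col6a1, 0.93 for Col1a2, 0.92 for Col16a1 and 0.81 for Col1a1. Col15a1 did not pass with adipocyte markers without Saline 2, HDL 11 and Dual 10. On log2(FPKM + 0.1) and log2(FPKM + 1), neither Col15a1 nor Col27a1 passed with them. Whether these collagens followed the fibroblast or the adipocyte list cannot be told apart here.

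Col15a1 stood with this set and apart from its relative Col18a1. Col15a1 had r = 0.66 with the fibroblast mean (rho = 0.71; permutation p = 0.00124 and 0.00069) and -0.63 with the endothelial mean (rho = -0.66; permutation p = 0.00206 and 0.00201). Its endothelial relation did not pass on log2(FPKM + 0.1) or log2(FPKM + 1) (permutation, adjusted p = 0.105 and 0.0908 over all genes). That of Col27a1 did not pass on either scale (adjusted p = 0.109 and 0.107), nor its fibroblast relation on the first (0.0602), and the endothelial relation of Col6a5 did not pass on the second (0.0882). Col18a1 had r = 0.69 with the endothelial mean (rho = 0.67; permutation p = 0.00034 and 0.00132).

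The 7 collagens with a positive endothelial relation were Col23a1, Col5a2, Col8a1, Col18a1, Col4a1, Col4a4 and Col4a3. Col23a1 followed the endothelial mean most closely of the 29, with r = 0.96 and rho = 0.95 (permutation p = 1e-05 each). Col5a2 had r = 0.81 and rho = 0.84 (permutation p = 1e-05 and 2e-05), and Col8a1 had r = 0.80 and rho = 0.84 (permutation p = 5e-05 and 2e-05). Col4a1 had r = 0.61 and rho = 0.62 (permutation p = 0.00268 and 0.00434), and its partner Col4a2 had r = 0.52 and rho = 0.40 (permutation p = 0.0166 and 0.0868) and did not pass over all genes (adjusted p = 0.0563); it passed on both log2(FPKM) scales (adjusted p = 0.0194 and 0.0178). Without the 2 libraries farthest from the median endothelial mean, HDL 4 and Saline 1, r was 0.97 for Col23a1, 0.78 for Col5a2, 0.81 for Col8a1 and 0.67 for Col4a1. Col4a3 then no longer passed (r = 0.53, adjusted p = 0.0893), while Col4a2 did (r = 0.56, adjusted p = 0.0496).

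**Figure D3:**
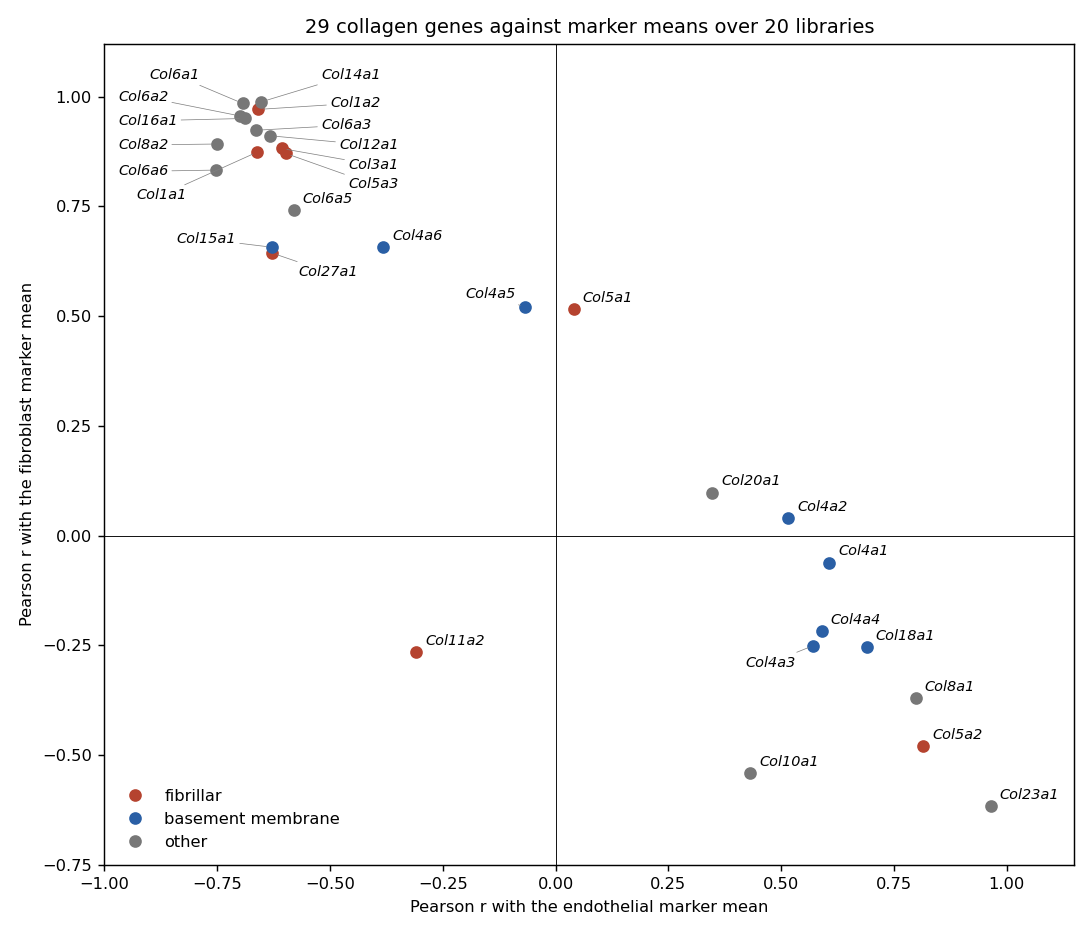
Pearson r of each of the 29 tested collagen genes with the mean of 14 endothelial markers (horizontal axis) and of 9 fibroblast markers (vertical axis), over 20 libraries, coloured by class. Col14a1, Col6a1 and Col1a2 sit near the top left, Col23a1, Col5a2 and Col8a1 at the lower right, and Col4a1 to Col4a4 and Col18a1 on the endothelial side with a fibroblast r between -0.25 and 0.04.

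Chains of the same type fell on opposite sides. Col5a2 rose with the endothelial mean, while Col5a1 (r = 0.04 with endothelial and 0.52 with fibroblast markers) and Col5a3 (-0.60 and 0.87) did not. Col8a1 rose with it, while Col8a2, the other type VIII chain, fell with it (r = -0.75) and rose with the fibroblast mean (0.89). Of the remaining members, Col4a6 had a positive fibroblast relation alone, Col10a1 a negative one, and Col11a2, Col4a2, Col4a5, Col5a1 and Col20a1 passed with neither list. Col23a1 was negative with fibroblast markers (r = -0.62). Without Saline 2, HDL 11 and Dual 10, Col4a6 was also negative with the endothelial mean (r = -0.59, adjusted p = 0.0467 over all genes) and Col4a2 positive (0.57, 0.0499). The fibroblast relation of Col10a1 no longer passed (r = -0.53, adjusted p = 0.0845), while Col5a2 (-0.69, 0.0108) and Col8a1 (-0.60, 0.0389) became negative with that mean. The Col10a1 relation did not pass without Saline 9 and Dual 21 either (adjusted p = 0.082). Adipocyte markers gave 16 positive and 2 negative relations, and 41.1% of all genes passed with them. Without Saline 2, HDL 11 and Dual 10 they gave 15 positive and 3 negative relations (19.1% and 20.3% of all genes). The negative ones were then Col5a2, Col23a1 and Col8a1. Smooth muscle markers gave 0 relations among 29 collagens (1.18% of all genes, 0.457% positive and 0.724% negative), also adjusted over the 116 collagen relations alone, and r stayed between -0.35 and 0.39. Without Saline 1 and Dual 10, the libraries farthest from the median smooth muscle mean, 1 of 29, Col4a2 (r = 0.59, adjusted p = 0.0362 over all genes), had a positive relation, against 0.475% of all genes.

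Promoter sequences were compared for 2 collagens of each set, with 100 bases from RefSeq GRCm38.p6 upstream of annotated exons, 5′ to 3′ on the strand of the gene. Capitals mark the GC box GGGCGG or its reverse complement CCGCCC, 1 of 3 motifs searched on both strands. Col23a1 (chr11:51289820-51289919, plus strand) and Col8a1 (chr16:57754738-57754837, minus strand) rose with endothelial markers. Col3a1 (chr1:45311438-45311537, plus strand) and Col6a1 (chr10:76726169-76726268, minus strand) rose with fibroblast markers.
Col23a1: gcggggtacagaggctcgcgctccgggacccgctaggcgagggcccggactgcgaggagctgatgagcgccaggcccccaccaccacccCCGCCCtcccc
Col8a1: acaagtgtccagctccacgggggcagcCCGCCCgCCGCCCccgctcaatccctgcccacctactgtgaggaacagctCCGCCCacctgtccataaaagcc
Col3a1: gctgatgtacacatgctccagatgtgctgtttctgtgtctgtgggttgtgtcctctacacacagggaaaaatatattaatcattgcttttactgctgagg
Col6a1: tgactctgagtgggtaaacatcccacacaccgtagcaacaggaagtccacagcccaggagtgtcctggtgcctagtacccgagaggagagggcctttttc

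The stretches of Col23a1 and Col8a1 hold the GC box, Col8a1 in 3 places, and those of Col3a1 and Col6a1 do not, but these 4 genes do not stand for their sets. In the window from 250 bases before the start site to 50 after it, the box was in 8 of the 12 genes with a promoter entry that rose with fibroblast and fell with endothelial markers, and in 4 of the 5 that rose with endothelial markers, Col4a4 being the one without it. In the same window, 21 of 33 collagen entries (30 of the 36 genes) held it, where 35.7% of all 32851 promoters do. The motif CCAAT was in 11 of the 33 entries and 37.4% of all promoters, and TATAAA in 4 and 13.6%. A match describes these letters and is not a binding site.

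Pairs of chains showed which collagens rose and fell together over the libraries. Among 8 pairs, 4 had r from 0.95 to 0.98: Col1a1 with Col1a2 (r = 0.95, rho = 0.94), Col1a1 with Col3a1 (r = 0.95, rho = 0.95), Col4a1 with Col4a2 (r = 0.98, rho = 0.89) and Col6a1 with Col6a2 (r = 0.98, rho = 0.97). In each the permutation p was 1e-05 for both measures, and 2e-05 after adjustment over the 8 pairs. Without the 2 libraries farthest from the median of the first gene, r was 0.93, 0.93, 0.94 and 0.97.

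The other 4 pairs did not pass. Col5a1 and Col5a2, which assemble together, had r = 0.28 and rho = 0.16 (permutation p = 0.223 and 0.491, adjusted p = 0.357 and 0.561), and r = 0.03 without the 2 farthest libraries. Col15a1 and Col18a1 had r = -0.17 and rho = -0.29 (permutation p = 0.456 and 0.22, adjusted p = 0.521 and 0.293). Col1a1 and Col4a1, the leading chains of fibrils and basement membranes, had r = -0.05 and rho = -0.13 (permutation p = 0.823 and 0.582, adjusted the same), and Col3a1 and Col8a1 had r = -0.18 and rho = -0.40 (permutation p = 0.447 and 0.0783, adjusted p = 0.521 and 0.125).

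**Figure D4:**
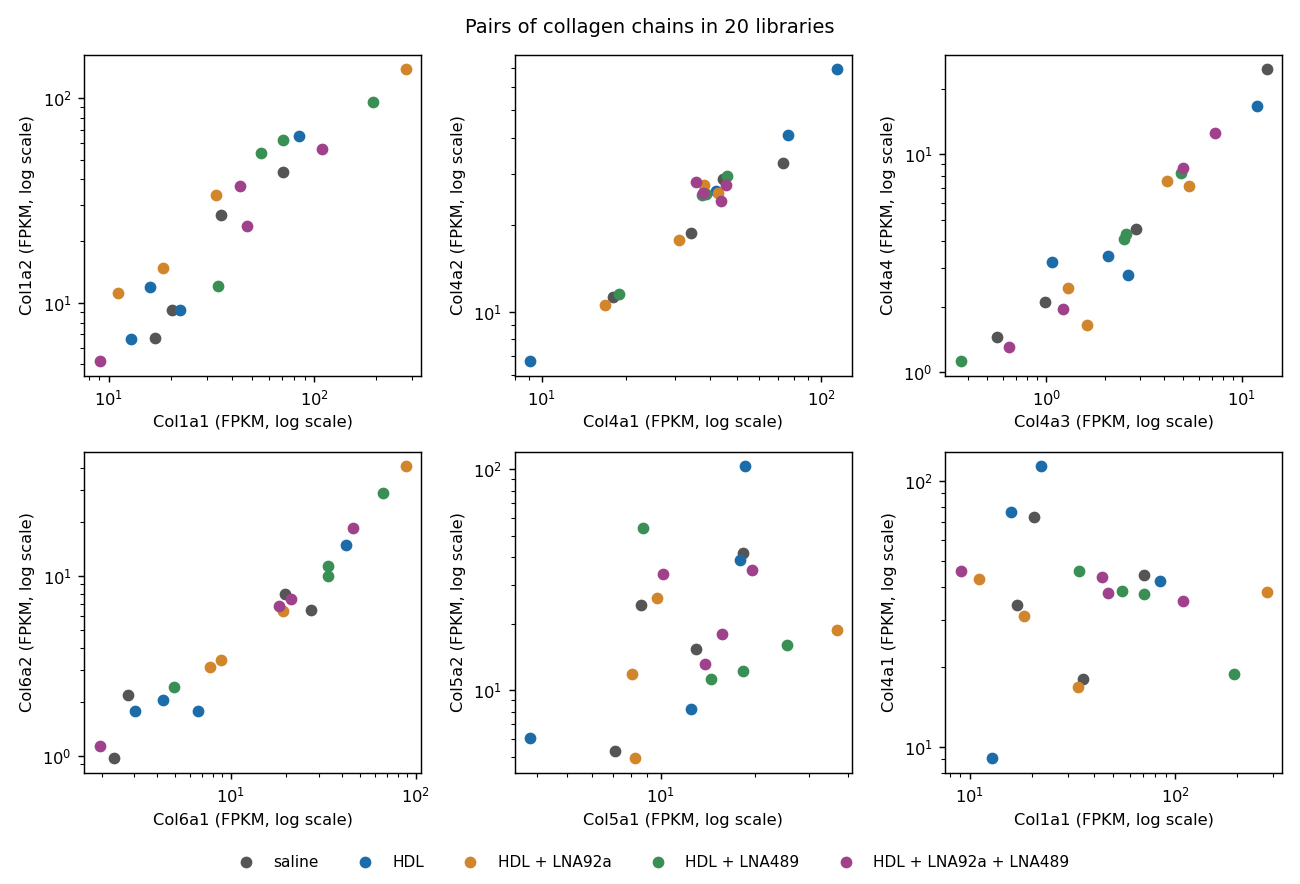
FPKM of 2 collagen chains against each other in the 20 libraries, both axes logarithmic, coloured by group. Col1a1 with Col1a2, Col4a1 with Col4a2, Col4a3 with Col4a4 and Col6a1 with Col6a2 lie along a line (r = 0.95 to 0.98), while Col5a1 with Col5a2 (r = 0.28) and Col1a1 with Col4a1 (r = -0.05) scatter.

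Between HDL and saline mice, which differ in the lipoprotein only, no collagen passed the test. Limma gave 0 of 29 collagens at adjusted p under 0.05, as for all genes (0%), and 0 of 29 at unadjusted p under 0.05 (1.67% of all genes). In 0 of 29 the 4 HDL mice lay apart from the 4 saline mice (0.973% of all genes). Of the 29 differences 17 were above 0 (54.0% of all genes), with a median of 0.10 on the log2 scale, beside 0.03 over all genes tested. Of the same 29, the smallest p values belonged to Col20a1 (0.50 ± 0.33, SE), Col6a5 (1.10 ± 0.83) and Col18a1 (0.53 ± 0.59), each with an adjusted p of 1.00 in limma.

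Col18a1 averaged 20.3 ± 16.9 FPKM (SD, n = 4) with HDL and 11.7 ± 8.43 with saline. HDL 11 was the lowest of the 20 libraries for it, at 3.06 FPKM. Without that library Col18a1, Col4a2 and Col4a1 were the 3 collagens at unadjusted p under 0.05, where 2.68% of all genes were. All 3 were higher with HDL, and none was called. Without Saline 2, HDL 11 and Dual 10 these were again the 3 collagens at unadjusted p under 0.05, where 3.23% of all genes were. Col1a1 averaged 33.8 ± 33.9 FPKM with HDL and 35.8 ± 24.4 with saline, a difference of -0.30 ± 0.92 with a 95% interval of -2.24 to 1.64. Col4a1 averaged 60.2 ± 44.9 and 42.4 ± 23.2 FPKM, a difference of 0.17 ± 0.58 (-1.05 to 1.396).

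The 3 comparisons with inhibitors use the same 4 HDL mice as controls, so their values are not independent of one another. With LNA92a, 0 of 29 collagens were called (0% of all genes), 0 had an unadjusted p under 0.05 (3.53%) and in 0 the groups lay apart (2.22%, of which 0.855% higher and 1.37% lower). With LNA489 these counts were also 0 (0%, 3.79% and 1.54% of all genes), and with both inhibitors 0 again (0%, 2.47% and 1.88%). Voom on the recovered reads likewise called 0 collagens and had 0 at unadjusted p under 0.05 in each of the 4 comparisons.

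More collagens lay above than below their HDL level in each inhibitor group, none of them past the test. With LNA92a 20 of 29 differences were above 0 (44.2% of all genes), with a median of 0.55 beside -0.06 over all genes. With LNA489 18 of 29 were above 0 (44.8% of all genes), with 0.57 beside -0.05. With both inhibitors 19 of 29 were above 0 (46.4% of all genes), with 0.19 beside -0.03. The median SE of a collagen difference was 0.77, against 0.36 over all genes tested. Tested on log2(FPKM + 0.1), all genes had a median of -0.47 for LNA92a, and the collagen median was 0.14 there with 16 of 29 above 0, which is 0.61 above the median of all genes on either scale.

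By class, the other types had the highest medians, 1.08 with LNA92a and 1.19 with LNA489 (each 9 of 13 above 0), and fibrillar chains had 0.77 and 0.73 (each 6 of 8 above 0). Basement membrane chains had 0.19 with LNA92a (5 of 8 above 0), -0.18 with LNA489 (3 of 8) and -0.16 with both inhibitors (2 of 8). With both inhibitors the fibrillar median was 0.33, with 8 of 8 above 0, and that of the other types 0.34, with 9 of 13. Over all genes, 44.2% were above 0 with LNA92a, 44.8% with LNA489 and 46.4% with both inhibitors. Many of these chains rose and fell together over the libraries, so the counts by class are not counts of separate observations.

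Col14a1 had the smallest p with LNA92a. It averaged 61.1 ± 66.2 FPKM against 23.9 ± 33.1 with HDL, a difference of 2.09 ± 1.14 with a 95% interval of -0.30 to 4.48 (limma adjusted p = 0.867). The other collagens at the low end of p were Col12a1, a fibril-associated chain, and Col16a1, at 1.502 ± 0.85 and 1.25 ± 0.75 with the same adjusted p. Col1a1 differed by 0.99 ± 0.92 and Col4a1 by -0.07 ± 0.58.

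Col6a6, a minor type VI chain, had the smallest p with LNA489 (1.98 ± 0.96; 2.40 ± 2.25 against 0.620 ± 0.850 FPKM). Col12a1 followed at 1.70 ± 0.85 and Col14a1 at 2.18 ± 1.14, whose 95% interval was -0.21 to 4.57 (limma adjusted p = 0.920 for each of the 3). Col12a1 averaged 4.64 ± 2.71 FPKM with LNA489 and 1.22 ± 1.07 with HDL, but LNA489 13, with 0.621 FPKM, lay below all 4 HDL mice, the lowest of which had 0.638. Col1a1 differed by 1.54 ± 0.92 and Col4a1 by -0.31 ± 0.58.

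With both inhibitors the smallest p belonged to Col20a1 (-0.44 ± 0.33), Col5a3 (0.99 ± 0.92) and Col6a6 (0.94 ± 0.96), each with a limma adjusted p of 0.998. Over the 5 groups, limma's F-test called 0 of 29 collagens (0% of all genes) and had 0 at unadjusted p under 0.05 (1.68%). The smallest F-test p values were 0.0644 for Col12a1, 0.102 for Col6a5 and 0.157 for Col16a1, each adjusted to 1.00.

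**Figure D5:**
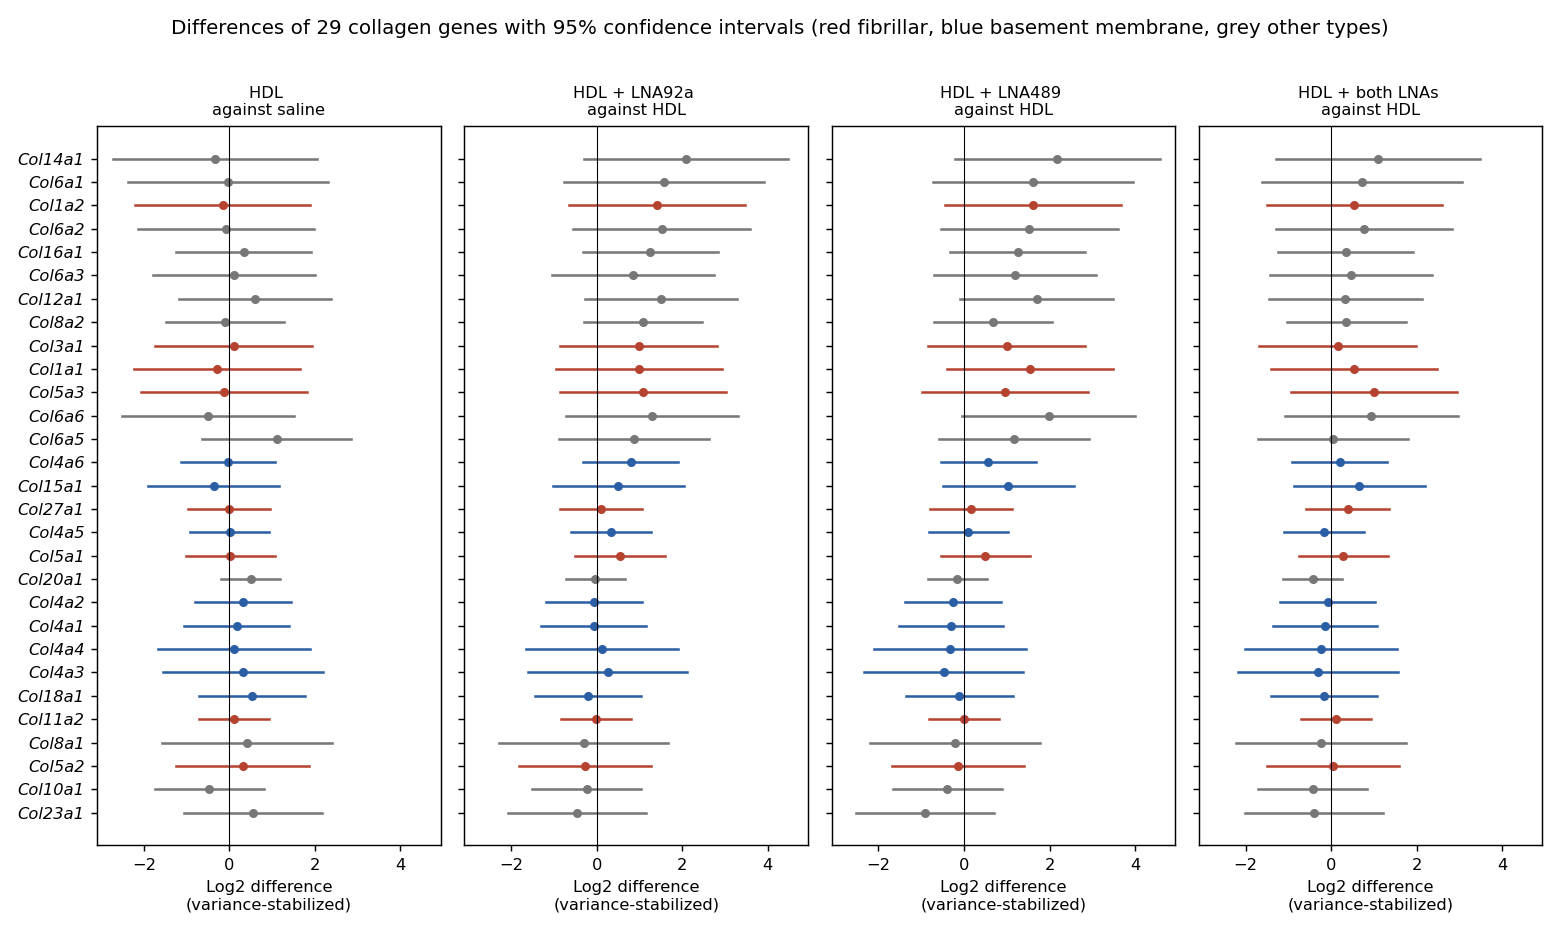
Differences in mean variance-stabilized log2 value of the 29 tested collagen genes in 4 comparisons, with 95% confidence intervals from limma; genes run from the highest r with fibroblast markers (top) to the lowest (bottom), coloured by class. Every interval holds 0; the upper genes lie mainly to the right of 0 with LNA92a and LNA489.

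Single mice weighed on these differences. Without HDL 4, the HDL mouse with the highest Col1a1, Col3a1 and Col14a1, 9 of 29 collagens had an unadjusted p under 0.05 with LNA92a (Col16a1, Col14a1, Col4a6, Col6a2, Col12a1, Col8a2, Col1a2, Col6a1 and Col6a6), where 17.0% of all genes did. With LNA489 there were then 11 of 29, where 13.6% of all genes did. Without LNA489 13 there were 7 of 29 with LNA489, where 7.82% of all genes did. Without HDL 11 there were 2 with LNA489, Col4a1 and Col4a2, where 2.99% of all genes did. It was 1 of 29, Col4a1, with LNA92a and with both inhibitors, where 1.93% and 1.68% of all genes did. In these fits without HDL 11, Col4a1 and Col4a2 were lower than with HDL. The Col4a1 difference was -0.87 with LNA92a, -1.11 with LNA489 and -0.94 with both inhibitors. The collagens named without HDL 4 were higher than with HDL. None was called in any of these fits.

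Levels of several marker lists differed between the same groups, with overlap except where stated. Summed over 9 of 9 fibroblast markers, the ranges were 98.6 to 1197 FPKM with saline, 164 to 1791 with HDL, 536 to 2410 with LNA92a, 297 to 2866 with LNA489 and 180 to 1713 with both inhibitors. Summed over 14 of 14 endothelial markers, they were 86.0 to 2130, 81.6 to 2268, 79.2 to 1075, 155 to 673 and 150 to 1509 in the same order, and the endothelial mean was 10.37 ± 1.77 on the log2 scale (SD, n = 4) with HDL and 10.11 ± 1.46 with LNA92a. Adipocyte markers (9 of 9) summed to 108 to 4386 FPKM with HDL, 816 to 5145 with LNA92a and 227 to 3556 with LNA489. Mesothelium markers (4 of 4) summed to 3.32 to 225, 102 to 157 and 65.0 to 557 in that order. Striated muscle markers (8 of 8) summed to 22.9 to 36.1 with HDL, 53.4 to 575 with LNA92a, above all HDL mice, and 19.7 to 924 with LNA489. With both inhibitors, adipocyte, mesothelium and striated muscle markers summed to 72.5 to 3256, 21.0 to 251 and 15.8 to 108 FPKM. The mean of the macrophage markers (10 of 10) was 11.51 to 12.26 on the log2 scale with both inhibitors. This was above all HDL mice (9.74 to 11.29), though the FPKM sums overlapped (3144 to 8762 and 895 to 3244). No marker of these lists was at 0 in all libraries. With the endothelial, smooth muscle and fibroblast means as covariates, the Col14a1 difference was 0.49 ± 0.19 with LNA92a and 0.62 ± 0.19 with LNA489, and that of Col1a1 was -0.09 ± 0.48 and 0.63 ± 0.49. No collagen was called. At unadjusted p under 0.05 in limma were Col14a1 with LNA92a (2.10% of all genes) and Col14a1 and Col6a6 with LNA489 (3.73%). Col20a1 was with both inhibitors (5.59%), and 0 of 29 for HDL against saline (4.05%). In the F-test they were Col12a1 and Col14a1 (3.05%). The part of adipocyte, mesothelium, striated muscle and macrophage markers in these differences was not tested.

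Genes that fold, cut, bind and break down collagen were also without calls. In 4 fixed lists, 0 of 19 folding and modification genes, 0 of 12 processing and crosslinking genes, 0 of 8 receptors and 0 of 12 breakdown genes were called by limma in the 4 comparisons, in either direction (0% of all genes in each). P4ha1, a prolyl hydroxylase subunit needed for a stable helix, was the 1 of 19 folding genes with an unadjusted p under 0.05 in a comparison, with LNA489 against HDL, where 3.79% of all genes had one. It measured 9.25, 15.8, 22.0 and 8.54 FPKM with LNA489 and 8.401, 6.81, 7.97 and 7.69 with HDL. All 4 LNA489 mice lay above the HDL mice, as in 0.415% of all genes (1.13% lay below), with a difference of 0.74 ± 0.27 (limma adjusted p = 0.920). With both inhibitors P4ha1 measured 9.30, 13.99, 9.50 and 10.3 FPKM, also above all 4 HDL mice (0.748% of all genes), with a difference of 0.38 ± 0.27 (limma adjusted p = 0.998). Both comparisons use the same 4 HDL mice. With saline P4ha1 measured 5.605, 7.66, 17.4 and 10.6 FPKM, a range that held all 4 HDL values.

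Ctsk, the collagen-cutting protease cathepsin K, was the 1 of 12 breakdown genes with an unadjusted p under 0.05, with HDL against saline, where 1.67% of all genes had one. It measured 20.1, 8.44, 1.83 and 5.55 FPKM with HDL and 8.74, 35.98, 46.9 and 14.5 with saline, ranges that overlap, with a difference of -1.46 ± 0.58 (limma adjusted p = 1.00). The mean of the macrophage markers was 10.66 ± 0.66 on the log2 scale (SD) with HDL and 11.66 ± 0.78 with saline, with overlap. The part of macrophage markers in the Ctsk difference was not tested. Loxl1, a crosslinking enzyme, had a difference of 1.63 ± 0.91 with LNA489 (limma adjusted p = 0.920). The collagen receptor gene Ddr2 had one of 2.02 ± 1.183 in the same comparison, with the same adjusted p. Their levels ran from 2.16 FPKM in Dual 21 to 63.6 in LNA92a 12 for Loxl1, and from 1.21 in Saline 9 to 82.1 in LNA489 14 for Ddr2.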

How the data were processed

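RNA from the aortic endothelium of 20 mice was sequenced, 4 per group. Per the submitters' processing notes, cutadapt 1.16, STAR 2.5.3a, FastQC, featureCounts 1.15.29, DESeq2 1.18.1 and the build GRCm38.p5 were used; the strand of counting was not given in the sources used here. The authors deposited FPKM values with gene lengths, and variance-stabilized values on a log2 scale. FPKM was used for levels and log2 values for tests. Limma 3.58.1 (R 4.3.3) was fitted on 5 group means (trended variance, 15 residual degrees of freedom) to the 16848 genes with a mean of at least 0.5 FPKM, and p-values were Benjamini-Hochberg adjusted over all of them. The adjusted p threshold was 0.05. Whole reads were recovered from FPKM and length, and gave the depths of 11.6 to 21.4 M reads. Nothing in the labels gives a batch, litter or date, and the 4 libraries of a group are from separate mice. Correlations used 100000 permutations.

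The members and gene lists were chosen with earlier results of these data known. Values per library are given for the 5 collagens of each class with the highest mean FPKM, and in each comparison the 3 with the smallest p are named; Col23a1, Col4a3, Col8a2 and Col15a1 were named after their values were seen. Alternatives were log2(FPKM + 0.1), log2(FPKM + 1), no filter, no variance trend, marker covariates and each library left out. Voom on recovered reads, leaving out Saline 2, HDL 11 and Dual 10, and adjusting marker relations over all genes, also under the alternatives, were chosen after seeing the data.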

Additional observations from a re-analysis of the deposited data

Results flagged for a closer look

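The named collagens and the summed FPKM of each class were checked on a log2 scale, in 90 groups of 4 libraries. In 8 of them the gap of a library to the nearest other exceeded Dixon's 95% critical share of the group's range. Chance gives about 1 in 20. All 8 were groups of single collagens and not of class sums, and their values are given in FPKM. In LNA489 13, Col5a2 was 54.2 FPKM (11.2 to 16.0 in the other LNA489 mice), Col1a2 was 12.1 (54.1 to 95.8) and Col14a1 was 9.46 (80.9 to 159). In LNA489 14, Col4a1 was 18.8 FPKM (37.5 to 45.9) and Col4a2 was 11.48 (25.4 to 29.4). Col5a1 was 3.81 FPKM in HDL 11 (12.5 to 18.7 in the other HDL mice) and 36.7 in LNA92a 12 (8.08 to 9.70 in the other LNA92a mice). Col6a2 was 14.8 FPKM in HDL 4 (1.77 to 2.05 in the other HDL mice).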

How the results depend on the processing

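The count of collagens called stayed at 0 in the 4 comparisons and the F-test under every alternative run. With smooth muscle markers, 4 positive relations passed over the collagen relations alone without Saline 1 and Dual 10, and 1 over all genes, against 0 with all libraries. With fibroblast markers, 1 negative relation passed over all genes without Saline 9 and Dual 21, against 2 with all libraries; the cause was not tested. The difference of Col1a1 between HDL and saline was 0.54 without Saline 2, HDL 11 and Dual 10. With marker covariates that of Col4a1 between HDL and saline was -0.0301 and that of Col1a1 between LNA92a and HDL -0.0869. Leaving out 1 library at a time, Col1a1 ranged from -0.98 to 0.16 for HDL against saline and from -0.0046 to 1.24 for both inhibitors against HDL. Col4a1 ranged from -0.28 to 0.97 for HDL against saline, and against HDL from -0.87 to 0.39 with LNA92a, -1.11 to 0.15 with LNA489 and -0.94 to 0.31 with both. Single differences, pairs and marker relations were each counted once per alternative. They kept direction and side of the threshold 959 times, lost the threshold 34 times and changed sign 17 times. Only endothelial and fibroblast relations that passed over the 116 collagen relations entered this count. Marker relations that gained the threshold are therefore not in it. No paired analysis was possible because the mouse numbers differ between groups. With 4 mice a group and a median SE of 0.77, small differences were not detectable, and large ones also went uncalled. Col14a1 differed by 2.09 ± 1.14 (SE) between LNA92a and HDL on the log2 scale and was not called.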
